A study of Homo sapiens with 4 samples.

Results

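Voltage-gated and calcium-activated ion channel genes were examined in a neuroendocrine prostate cancer line treated with ketotifen. The set was defined by gene symbol: every row of the deposited expression table whose symbol starts with KCN, CACN or HCN and a digit, the sodium channel alpha and beta subunits (SCN, a number, A or B), and the calcium-binding proteins CABP1, CABP4 and CABP7. It holds 122 genes of the 16376 in the table, all annotated as protein-coding. RNA had been measured by polyadenylated-RNA sequencing in LASCPC-01, a human line obtained when epithelial cells of a benign prostate were transformed by N-Myc together with activated AKT1. The comparison was between 2 libraries of cells given PBS, the vehicle control, and 2 of cells given ketotifen, an H1 antihistamine. All 4 libraries are labelled wild-type and day 3, and no dose is given in the sources used here. The names of the ketotifen columns hold an unexplained digit, and whether it marks a dose is unknown. Each group is 1 cell line under 1 condition, and the labels do not tell if the 2 libraries of a group are separate cultures. The p-values therefore rest on library-to-library spread alone, and that spread may be technical.

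Many ion channels of this set open and close with membrane voltage, with intracellular calcium or with both. Others, such as its ATP-sensitive, G protein-gated and acid-sensitive potassium channels, respond to other signals. Sodium and calcium channels carry depolarising current and calcium entry, and calcium entry triggers release of secretory vesicles in neurons and endocrine cells. Potassium channels repolarise the cell and hold its resting potential, and the CABP proteins are relatives of calmodulin that bind calcium and can regulate calcium channels. The labelled cell type was checked on neuroendocrine markers. INSM1, a transcription factor of neuroendocrine cells, had 19.7 to 22.9 FPKM over the 4 libraries. The adhesion molecule NCAM1 had 52.0 and 51.2 FPKM with PBS against 44.4 and 43.9 FPKM with ketotifen. Its adjusted p was 0.107 with limma and 0.0101 with voom, a test on recovered reads. ENO2 had 2.76 and 3.10 against 2.07 and 1.60 FPKM (adjusted p = 0.102 with limma and 0.0445 with voom). UCHL1 went the other way, with 458 and 434 against 487 and 490 FPKM (0.226 with limma and 0.0992 with voom). Of the 9 listed markers 5 were tested, and limma called none. Voom called NCAM1 and ENO2 lower, beside 3.44% of all its genes. CHGA (chromogranin A) and SYP (synaptophysin), classic markers of the type, stayed under 0.6 FPKM in each library. Summed FPKM of fibroblast markers was 2.85 and 2.96 with PBS and 2.55 and 2.12 with ketotifen, and that of mast cell markers 3.91 and 3.86 against 3.33 and 2.97. The mast cell sum was nearly all KIT (3.88 and 3.76 against 3.30 and 2.88 FPKM), and the other markers of that list, TPSAB1 and CPA3, stayed at or below 0.098 FPKM in each library. Immune markers summed to 2.77 and 3.99 against 2.94 and 3.16, and endothelial markers to 0.205 and 0.218 against 0.188 and 0.126. The part of these lists in the results was not tested.

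Levels are given in FPKM, fragments per kilobase of gene scaled to the size of the library, a scale per length on which genes can be compared. Most of the 122 genes were near the lower end of it. Taking a 4-library mean of 1 FPKM or more as expressed, 25 of the 122 genes were expressed (20.5%), beside 64.6% of all 16376 rows. The median of the set was 0.029 FPKM, against 4.15 FPKM for all rows. With lower and higher limits, 49 genes reached 0.1 FPKM and 14 reached 5 FPKM. At the limit itself stood KCNK9 with a mean of 1.03 FPKM, CACNA2D1 with 0.931 and KCNT1 with 0.899. Read numbers could be recovered for all 122 genes from the steps in the values, as the smallest whole numbers in the ratio of a gene's 4 values. A factor shared by the 4 values stays unknown, so the read numbers given here are lower bounds. Where an upper limit in reads is given, it is a limit on the recovered number, and the true number can be higher. In 63 genes no library had more than 10 recovered reads, and 7, among them KCNA4, KCNJ1 and KCNK13, had 0 reads in every library, which allows up to 3 reads per library by counting error alone.

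**Figure D1:**
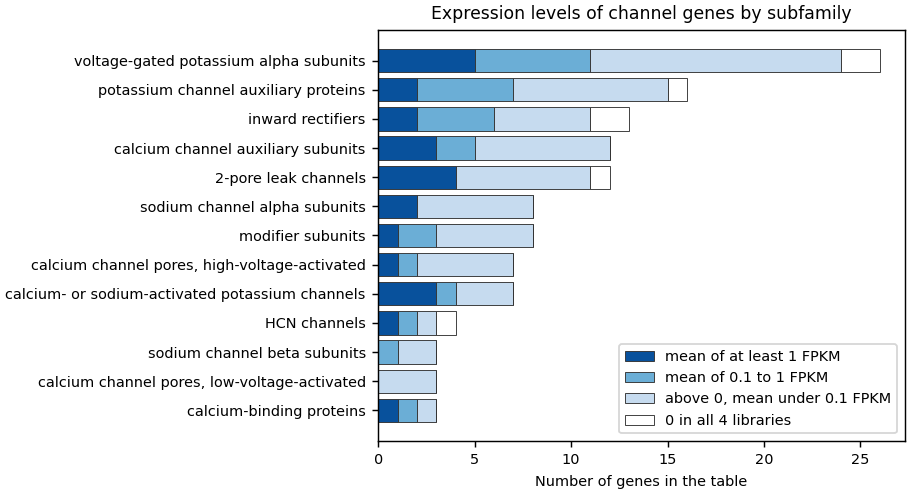
Number of genes of each channel subfamily in the table (horizontal axis, count), split by mean FPKM over the 4 libraries. The darkest part of each bar is the 25 genes whose mean is 1 FPKM or more, and the white part the 7 genes at 0 in all libraries.

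A few potassium channels made up most of the channel RNA. KCNH2, KCNJ11 and KCNN3 together held 50.3% of the summed FPKM of the 122 genes. KCNH2, which encodes hERG, a delayed rectifier that sets repolarisation in the heart, was the highest, at 71.3 and 74.1 FPKM in PBS libraries A and B and at 67.1 and 68.7 FPKM in ketotifen libraries A and B. Its level lay above that of 94.3% of all rows. The ketotifen libraries were both below the PBS libraries, by less than the test could call (change -0.10 on the log2(FPKM + 1) scale, 95% interval -0.22 to 0.02, limma adjusted p = 0.334). KCNH3, a brain-enriched relative of KCNH2, had 14.3 and 12.5 FPKM with PBS and 11.3 and 11.6 FPKM with ketotifen, both below PBS. KCNQ1, the slow delayed rectifier of heart and epithelia, ranged from 4.18 to 5.46 FPKM, and KCNB2, a neuronal delayed rectifier, from 2.85 to 3.09 FPKM. The other 21 of the 26 voltage-gated alpha subunits were under 1 FPKM. The highest of these was KCND2, an A-type channel, with a mean of 0.735 FPKM. None of the Shaker genes in the table (KCNA2, KCNA3, KCNA4, KCNA6) had more than 8 recovered reads in a library.

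**Figure D2:**
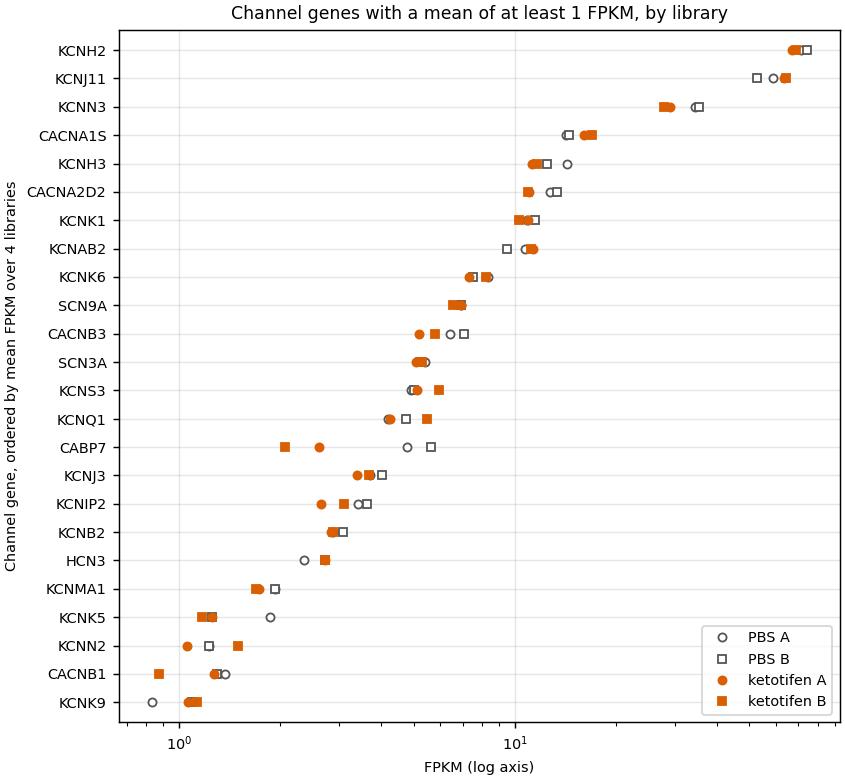
FPKM (log axis) of 24 of the 25 expressed channel genes in each of the 4 libraries; open grey symbols are PBS, filled orange symbols ketotifen, circles library A and squares library B. KCNH2 is at the top with 67.1 to 74.1 FPKM, and CABP7 is the row where the 2 groups stand farthest apart.

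Subunits that do not form a working channel alone were also few. KCNS3, a silent partner of KCNB channels, had 4.90 and 5.01 FPKM with PBS and 5.12 and 5.94 FPKM with ketotifen, and it was the one of 8 modifier subunits above 1 FPKM. Of 16 auxiliary proteins of potassium channels 2 were above 1 FPKM. KCNAB2, a cytoplasmic beta subunit related to aldo-keto reductases, ranged from 9.48 to 11.3 FPKM. KCNIP2, a calcium-binding partner of KCND channels, had 3.42 and 3.64 FPKM with PBS and 2.66 and 3.11 FPKM with ketotifen, while the KCND pores themselves stayed under 1 FPKM. The KCNE genes reached at most 0.724 FPKM, in KCNE5, where 13 reads or fewer were recovered in a library. KCNE5 shares 78 bases of exon with ACSL4 on the same strand (mean of 42.7 FPKM), and the part of ACSL4 in its value was not tested.

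Calcium-activated potassium channels were led by KCNN3, a small-conductance channel opened by calcium through bound calmodulin. KCNN3 had 34.5 and 35.5 FPKM with PBS and 29.1 and 27.9 FPKM with ketotifen, on 12613 to 16501 reads per library. Of its relatives, KCNN2 had 1.23 ± 0.0008 FPKM with PBS and 1.28 ± 0.32 FPKM with ketotifen (SD, n = 2). For KCNN1 and KCNN4 no more than 13 reads were recovered in a library. KCNMA1, the pore of the large-conductance BK channel, had 1.93 FPKM in both PBS libraries and 1.73 and 1.70 FPKM with ketotifen. Its brain-type beta subunit KCNMB4 was at 0.799 to 0.928 FPKM. The BK gamma subunit LRRC26, no member of the set and named after its values were seen, had 30.3 and 33.6 FPKM with PBS and 24.0 and 28.0 FPKM with ketotifen (limma adjusted p = 0.143).

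Inward rectifiers and leak channels, which set the resting potential, had 6 of 25 genes above 1 FPKM. KCNJ11, the pore of the ATP-sensitive potassium channel that couples metabolism to insulin release in beta cells, had 58.6 and 52.9 FPKM with PBS and 63.5 and 64.1 FPKM with ketotifen. KCNJ3, a G protein-gated subunit, ranged from 3.38 to 4.01 FPKM. For the other G protein-gated subunits KCNJ5, KCNJ6 and KCNJ9 at most 1 read was recovered in a library. KCNJ12 and KCNJ18 are near-identical copies, so the split of their reads is uncertain. Among the leak channels, the weakly rectifying KCNK1 ranged from 10.3 to 11.5 FPKM, its relative KCNK6 from 7.32 to 8.34 FPKM and KCNK5, an alkaline-activated channel, from 1.17 to 1.87 FPKM. The next in order was KCNK9, an acid-sensitive channel, at 0.831 to 1.14 FPKM. The other 8 leak channels had no more than 9 recovered reads in a library.

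One calcium channel pore stood out by its level. CACNA1S, the L-type pore known as the voltage sensor of skeletal muscle, had 14.2 and 14.5 FPKM with PBS and 16.1 and 17.0 FPKM with ketotifen, on 1411 to 1785 reads. Among the other 9 pores in the table, CACNA1D, the L-type pore of endocrine cells, was at 0.626 to 0.790 FPKM. Each of the remaining pores had at most 9 recovered reads in a library. These include the P/Q-type CACNA1A, the N-type CACNA1B and all of the low-voltage-activated T-type pores. No exon of CACNA1S overlaps another annotated gene. In CACNA1D, 1399 bases of exon overlap CHDH on the opposite strand (mean of 8.32 FPKM), and the part of CHDH in the CACNA1D value was not tested. STAC3, an adaptor that CACNA1S needs in muscle, was at 18.0 to 20.6 FPKM, and RYR1, the release channel it opens there, was at 0 in all 4 libraries; STAC3 and RYR1 come from the fixed lists of other genes and were picked out after their values were seen. Of the auxiliary subunits, which carry calcium channels to the membrane, CACNA2D2 had 12.8 and 13.4 FPKM with PBS and 11.0 and 10.9 FPKM with ketotifen. CACNB3 had 6.42 and 7.06 FPKM with PBS and 5.20 and 5.80 FPKM with ketotifen. CACNB1, the beta subunit of the muscle channel, had 1.37 and 1.30 FPKM with PBS and 1.28 and 0.874 FPKM with ketotifen. The CACNG genes in the table had no more than 5 recovered reads in a library.

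Sodium channels were represented by SCN9A and SCN3A, with little difference between groups. SCN9A, the channel of pain-sensing neurons, had 6.93 and 6.92 FPKM with PBS and 6.91 and 6.56 FPKM with ketotifen, and SCN3A, a channel prominent in the developing brain, had 5.42 and 5.21 FPKM with PBS and 5.08 and 5.29 FPKM with ketotifen. Both intervals of the change included 0 (SCN9A -0.19 to 0.12, SCN3A -0.19 to 0.13, log2 scale, 95%). Both genes lie in a cluster of 5 sodium channel genes within 1407 kb of chromosome 2 (GRCh38, GENCODE 29). SCN3A (165087522 to 165204067) is followed by SCN2A (165194993 to 165392310), SCN1A (165984641 to 166149214), SCN9A (166195185 to 166376001) and SCN7A (166403573 to 166494326). SCN3A and SCN9A had 995 to 1267 recovered reads per library, and the 3 genes beside and between them had at most 4. The beta subunit SCN3B had 9 and 23 reads with PBS and 30 and 32 with ketotifen. The pacemaker channels, which open on hyperpolarisation, were represented by HCN3, at 2.36 and 2.72 FPKM with PBS and 2.73 and 2.72 FPKM with ketotifen.

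**Figure D3:**
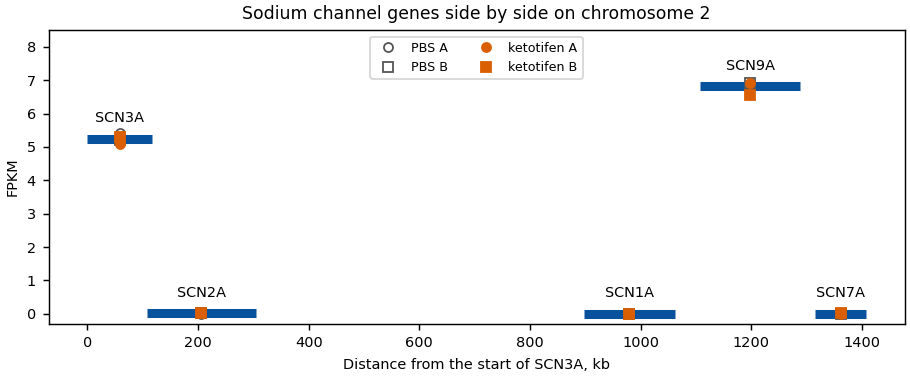
FPKM (vertical axis) of 5 neighbouring sodium channel genes on chromosome 2 against distance from the start of SCN3A in kb; bars span each gene at its mean, and symbols are the 4 libraries. SCN3A and SCN9A stand at 5.08 to 6.93 FPKM, and SCN2A, SCN1A and SCN7A between them and beyond lie at or near 0.

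With ketotifen 1 of the 25 tested channel genes fell, CABP7, none rose and 24 did not pass (limma on log2(FPKM + 1), Benjamini-Hochberg adjusted over 10586 genes, threshold 0.05). The percentages of all tested genes called were 0.113% lower and 0.00945% higher. At an unadjusted p under 0.05 there were 6 members lower and 2 higher (32.0% of the 25, against 20.4% of all tested genes). The groups did not overlap in 15 members, 11 with ketotifen lower and 4 with it higher. That is 60.0% of the members beside 54.4% of all tested genes, with 31.2% lower and 23.2% higher. The median change was -0.059 over the members and -0.018 over all tested genes, and the median size of change was 0.11 and 0.089. Within the groups, libraries A and B differed by a median of 0.074 (PBS) and 0.066 (ketotifen) over the members.

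CABP7 is a membrane-associated calcium-binding protein of the Golgi that is known to inhibit a phosphatidylinositol kinase. It was measured at 4.77 and 5.64 FPKM in PBS libraries A and B and at 2.61 and 2.07 FPKM in ketotifen libraries A and B. Both ketotifen libraries were below both PBS libraries, with group means of 5.20 ± 0.61 and 2.34 ± 0.38 FPKM (SD, n = 2), a ratio of 0.45. The recovered reads were 298 and 372 with PBS and 182 and 133 with ketotifen. The change was -0.89 ± 0.11 (SE) on the log2(FPKM + 1) scale, with a 95% interval of -1.14 to -0.65 (limma adjusted p = 0.0371). On the recovered reads, limma's voom gave -1.15 ± 0.18 (adjusted p = 0.00221). The call was lost with no filter on low values (limma adjusted p = 0.311), after median ratio scaling (0.0556), after quantile normalization (0.0637) and without the intensity trend (0.0818), with changes between -0.89 and -0.85. CABP7 lies on chromosome 22 (29720084 to 29731839, plus strand, GRCh38), and 399 bases of its exons overlap ZMAT5 on the opposite strand. ZMAT5 had 16.0 and 16.9 FPKM with PBS and 17.3 and 15.6 FPKM with ketotifen (limma adjusted p = 0.974), and its part in the CABP7 value was not tested. The sister genes were low: CABP4, known from photoreceptors, had 112 and 106 reads with PBS and 109 and 93 with ketotifen, and CABP1, a brain regulator of calcium channels, had 1 and 2 reads against 0 and 0.

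**Figure D4:**
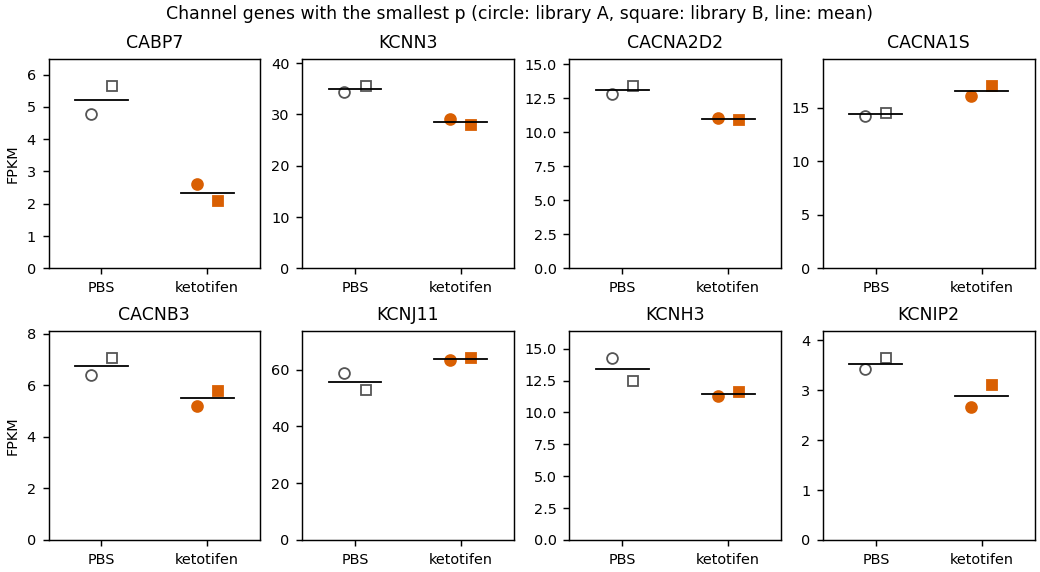
FPKM (vertical axis, from 0) of the 8 tested channel genes with the smallest p in PBS (open) and ketotifen (filled) libraries; circles are library A, squares library B and lines the group means. The groups do not overlap in any of the 8, but these were chosen by the p of this same comparison, which favours such genes. Of all tested genes, 54.4% had groups without overlap. Relative to the axis of its panel, the distance is largest in CABP7, with means of 5.20 and 2.34 FPKM.

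Voom on the recovered reads, which weights genes by their read number, called 5 of the 25 members: CABP7, KCNN3, CACNA2D2 and CACNB3 lower and KCNJ11 higher. Over all 10585 genes in that test 6.76% were called, 3.44% lower and 3.33% higher. KCNN3 had a voom change of -0.30 ± 0.05 (adjusted p = 0.00237), where limma on FPKM gave -0.29 ± 0.05 (adjusted p = 0.0968). For CACNA2D2 the voom change was -0.25 ± 0.07 (adjusted p = 0.0286) and the limma adjusted p 0.122. CACNB3 was near the threshold with voom (-0.30 ± 0.09, adjusted p = 0.0483), and so was KCNJ11 (0.20 ± 0.06, adjusted p = 0.0414), with limma adjusted p of 0.159 and 0.162. In a voom fit over the 12745 genes with a mean of at least 10 reads, CABP7, KCNN3 and CACNA2D2 passed, with adjusted p of 0.00618, 0.0049 and 0.0367, and CACNB3 (0.0621) and KCNJ11 (0.054) did not. That fit called 4.35% of its genes, 2.21% lower and 2.13% higher. With limma on FPKM, calls also differed when a PBS library was left out. The PBS group is then 1 library, assumed to vary like the ketotifen pair, which alone gives the spread, so these p-values are no replicate check of PBS. Without PBS library A, KCNN3 (adjusted p = 0.00139), KCNJ11 (0.00167), CACNA2D2 (0.0171), CACNB3 (0.0181) and KCNAB2 (0.0478) passed beside CABP7, with 1936 of all genes called. Without PBS library B, KCNN3 (0.0175) and KCNH3 (0.0261) did, with 421 of all genes called.

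The same fit reached 30 channel genes under 1 FPKM, and none of them passed (voom, 1 at an unadjusted p under 0.05). With limma and no filter none passed either, and 5 (CACNA1D, KCNE5, KCNJ14, KCNQ5 and KCNS1) had an unadjusted p under 0.05. Counting the expressed ones too, limma without a filter had 11 of 115 members at that level. Over all genes it had 2295, from a table of 16376. The gene under 0.05 with voom was KCND2, with 281 and 266 reads under PBS and 249 and 185 under ketotifen, a voom change of -0.40 with a 95% interval of -0.77 to -0.02 (adjusted p = 0.207). The remaining 67 members averaged under 10 recovered reads, and were outside that fit. KCND2 and the 5 others were picked out after their values were seen.

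**Figure D5:**
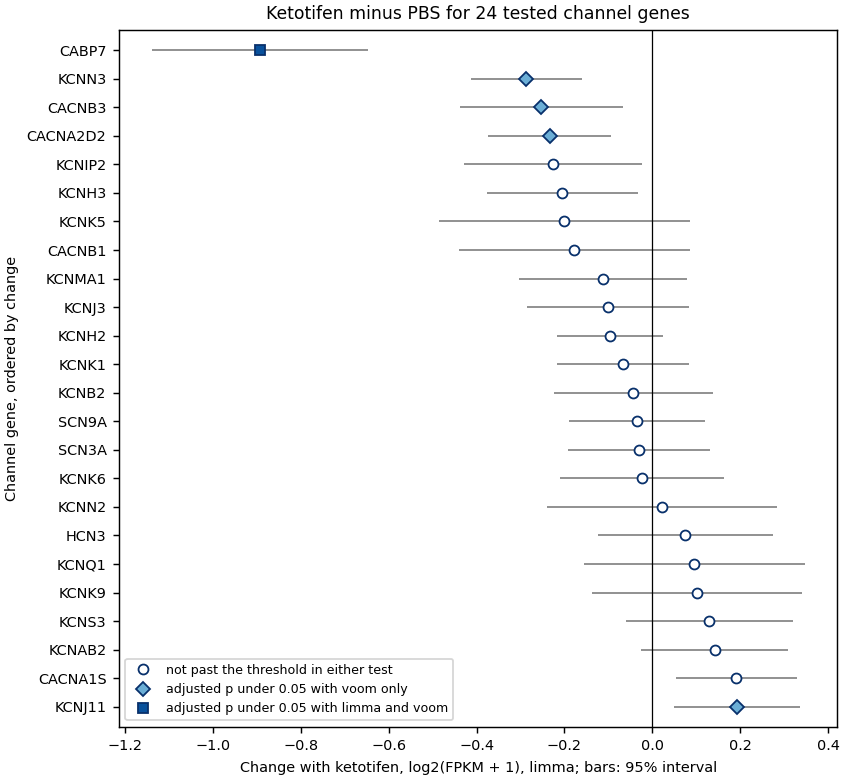
Change with ketotifen (horizontal axis, log2(FPKM + 1), ketotifen minus PBS) of 24 of the 25 tested channel genes with limma's 95% intervals. CABP7 stands apart at -0.89, the others lie between -0.29 and 0.19, and diamonds mark the 4 genes that passed with voom on recovered reads and not with limma on FPKM.

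The changes by role were small beside CABP7. Of the auxiliary calcium channel subunits tested (CACNA2D2, CACNB3 and CACNB1) none passed with limma, and the median change was -0.23. Their summed FPKM, with the 9 low members, was 21.8 and 23.0 with PBS and 18.6 and 18.7 with ketotifen. The pore CACNA1S had a change in the other direction, 0.19 ± 0.06 with a 95% interval of 0.05 to 0.33, and did not pass (limma adjusted p = 0.157, voom adjusted p = 0.108). KCNH3 had -0.21 ± 0.07 (limma adjusted p = 0.193) and KCNIP2 -0.23 ± 0.09 (limma adjusted p = 0.211). In the 4 tested leak channels the intervals of the change all included 0, as in KCNK1 (-0.22 to 0.08). CACNA2D2 lies on chromosome 3 (50362799 to 50504244), and 606 bases of its exons overlap a gene annotated as CYB561D2 on the opposite strand. The row of that name had 6.85 and 6.05 FPKM with PBS and 9.25 and 9.95 FPKM with ketotifen (limma change 0.51, adjusted p = 0.0713), and its part in the CACNA2D2 value was not tested. KCNN3 (chromosome 1, 154697455 to 154870280) and KCNJ11 (chromosome 11, 17385859 to 17389331) share no exon with another annotated gene.

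The promoters of the 3 genes called by both voom fits are shown for their difference in base composition. Each is the 250 bases before the RefSeq start (GRCh38.p14), 5′ to 3′ on the gene's strand, with the GC box GGGCGG (either strand, the site letters of the Sp1 family) in capitals. Their positions are chr22:29719753-29720002 (plus strand) for CABP7, chr1:154870282-154870531 (minus strand) for KCNN3 and chr3:50504245-50504494 (minus strand) for CACNA2D2.
CABP7: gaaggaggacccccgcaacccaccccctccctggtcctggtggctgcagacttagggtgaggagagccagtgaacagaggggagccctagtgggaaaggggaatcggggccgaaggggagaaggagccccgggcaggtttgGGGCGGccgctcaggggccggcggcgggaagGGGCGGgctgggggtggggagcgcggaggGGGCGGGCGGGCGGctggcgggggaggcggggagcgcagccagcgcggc
KCNN3: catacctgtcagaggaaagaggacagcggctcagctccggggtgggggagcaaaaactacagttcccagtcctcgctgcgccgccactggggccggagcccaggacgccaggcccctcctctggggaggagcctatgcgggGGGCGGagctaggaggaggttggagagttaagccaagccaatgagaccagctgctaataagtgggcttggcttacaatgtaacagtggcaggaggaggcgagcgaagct
CACNA2D2: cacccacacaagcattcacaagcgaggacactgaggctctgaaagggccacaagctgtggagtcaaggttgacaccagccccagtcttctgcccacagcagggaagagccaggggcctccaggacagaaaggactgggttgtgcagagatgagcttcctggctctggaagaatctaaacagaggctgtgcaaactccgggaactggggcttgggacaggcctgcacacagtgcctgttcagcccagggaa

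The CABP7 window had 75.6% G and C, 20 CG dinucleotides and 5 GC boxes, the last 3 overlapping. KCNN3 had 62.0%, 11 and 1, and CACNA2D2 58.0%, 2 and 0, where the median of all 27305 promoters was 58.0% and 11 CG dinucleotides. A GC box was in 42.3% of all promoters, in 57 of the 89 members with a RefSeq promoter and in 15 of the 18 expressed ones among them. The share over all expressed genes was not counted, so the 15 of 18 has no like background. Neither core of the hypoxia response element, ACGTG or GCGTG on either strand, was in any of the 3 windows. One or the other was in 43.1% of all promoters and in 34 of the 89 members. The E-box CACGTG, which contains the first of these cores, was in 6.49% of all promoters and in 5 of the 89. Which start these cells use is not given in the sources used here.

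Genes that work with these channels were counted in 5 lists with the same limma test, and none of their members passed in either direction. Over all tested genes, 20.4% had an unadjusted p under 0.05, with 10.3% lower and the rest higher, and voom called 3.33% higher and 3.44% lower. The lists are small, and their counts are to be read beside these shares. Calcium pumps, stores and entry channels had 19 tested genes, with 1 higher and 4 lower at an unadjusted p under 0.05, and voom called 1 lower, ITPR2, a release channel of the endoplasmic reticulum. ORAI3, a store-operated entry channel, had 6.96 ± 0.32 FPKM in PBS and 5.58 ± 0.047 FPKM in ketotifen libraries (SD, n = 2, limma adjusted p = 0.118), and MCU, the mitochondrial calcium uniporter, had 9.39 ± 0.88 and 7.71 ± 0.45 FPKM (limma adjusted p = 0.16). Calmodulin and its kinases had 14 tested genes, with 1 higher and 1 lower at an unadjusted p under 0.05. CALM3 had 168 ± 5.4 and 151 ± 2.1 FPKM (voom adjusted p = 0.0499), and CALM2, which encodes the same protein, had 218 ± 4.0 and 244 ± 14 FPKM, in the opposite direction. Partners of the channels had 11 tested genes, with 0 higher and 4 lower at an unadjusted p under 0.05. Of these FGF11, a sodium channel-binding factor, had 5.98 ± 0.17 and 4.26 ± 0.19 FPKM (adjusted p = 0.0937 with limma and 0.0243 with voom), and NEDD4L, a ubiquitin ligase that removes channels from the membrane, had 12.6 ± 0.42 and 10.6 ± 0.19 FPKM (adjusted p = 0.122 with limma and 0.0124 with voom).

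Other cation and chloride channels had 15 tested genes, with 1 higher and 1 lower at an unadjusted p under 0.05, beside the 20.4% of all tested genes in either direction. CLCN5, an endosomal chloride-proton exchanger, had 8.06 ± 0.0004 and 6.61 ± 0.37 FPKM (adjusted p = 0.131 with limma and 0.0157 with voom), and TRPM2, a cation channel opened by ADP-ribose, had 14.2 ± 0.54 and 16.4 ± 0.20 FPKM (limma adjusted p = 0.159). The sodium pump had 3 tested genes, with 1 higher at an unadjusted p under 0.05 and none called by voom. ATP1B1, a beta subunit of the pump, had 21.6 ± 1.2 and 25.6 ± 1.1 FPKM (limma adjusted p = 0.131), and the beta subunit ATP1B3 had 68.3 ± 2.6 and 73.5 ± 0.68 FPKM.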

How the data were processed

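The authors deposited FPKM values, 1 for each gene in each library. Of tools, fastp, HISAT2 and HTSeq are listed in the submitters' processing notes, and of builds GRCh38, with no versions. The sources used here do not give the annotation, gene lengths, scaling total or strand setting. A column name shows a group and a letter, A or B, and these letters were not tied to numbered replicates. The names of the ketotifen columns also hold a digit, which those of the PBS columns lack. The meaning of this digit could not be settled, and it was not read as a dose.

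FPKM values are not counts, so a two-sided limma test with intensity trend (version 3.58.1, R 4.3.3) was run on log2(FPKM + 1) over the genes whose mean was 1 FPKM or more. Fold changes on this scale understate those of low genes. An exact permutation test cannot go below p = 0.333 here.

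Within a gene, values moved in steps of 1 read. From these steps whole reads, known only up to a factor shared by a gene's 4 values, were obtained for 10585 of 10586 tested genes (Python 3.11.15, tolerance 0.05 reads or less), and for 0 of 500 decoys. They summed to 30996706 and 32783774 (PBS) and 34601860 and 31841835 (ketotifen). Voom was run on these.

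The set, lists and rules were chosen with earlier results of these data known. Named genes were those past the threshold, the highest 3 or 1 of each subfamily, the 10 with the smallest p, the CABP genes and 2 per list of other genes; further genes were named after their values were seen. Coordinates and overlaps are from GENCODE 29. Some genes are counted but not reported here by name.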

Additional observations from a re-analysis of the deposited data

How the results depend on the processing

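The number of channel genes called lower was 1 at the main settings. This fell to 0 without a filter, with the filter at 5 FPKM (which leaves CABP7 out), after median ratio scaling, after quantile normalization and without the intensity trend. In these 5 fits 11 of 115, 6 of 14, 8 of 25, 8 of 25 and 8 of 25 tested members had an unadjusted p under 0.05. Only for the fit without a filter was the count over all genes at that level taken, 2295. For the rest of these fits the members' counts have no such background. The number called lower was 4 with voom and 3 with voom on genes of at least 10 reads, and voom called 1 higher. Leaving out 1 library gave 1 to 4 lower and 0 to 2 higher: 4 and 2 when PBS library A was dropped, 3 and 0 when it was PBS library B. In each of these fits a group is 1 library, assumed to vary like the other group's pair, which alone gives the spread. Over all genes 13 were called, against 0 with no filter (2295 at an unadjusted p under 0.05), 27 with the filter at 5 FPKM, 3 after median ratio scaling, 3 after quantile normalization, 4 without the trend, 716 and 554 with voom, and 10 to 1936 without 1 library. The cause of these differences was not tested.

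The column letters A and B are not tied to the labels' replicate numbers, and nothing says that a letter marks a shared culture or day. Differences of A and B in the 2 groups had a correlation of 0.10 across tested genes, which are not independent. A fit with the letter as a replicate block, chosen after seeing the data, called 2 members lower (CABP7, limma adjusted p = 0.00433, and KCNN3, 0.0184) and 0 higher. It called 637 of all genes, on 1 residual degree of freedom per gene. At an unadjusted p under 0.05 there were 8 of the 25 members, beside 2549 of all 10586 tested genes.

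CABP7 kept its direction in all 14 alternatives that tested it and passed in 10, with changes from -1.15 to -0.47, and the groups' lack of overlap fixed that direction when a library was left out. The members' median change of -0.059 was -0.0042 with no filter, -0.11 when all libraries were scaled to the same sum, where the median of all genes was -0.069, and -0.099 to -0.054 without 1 library. Among the named genes reported here, directions turned in KCNN2 (-0.013 with that scaling, and -0.12 to 0.16 without 1 library) and KCNK6 (0.045 without PBS library A, 0.053 without ketotifen library A), none past the threshold. The number of expressed members was 25, against 49 at 0.1 FPKM and 14 at 5 FPKM.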
